A study of Rattus norvegicus with 8 samples.

Results

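The family of miR-15, miR-16, miR-195 and miR-497 was examined in small RNA sequencing of rat kidney. Every row of the count table named for miR-15a or miR-15b, miR-16, miR-195 or miR-497 was taken, with both arms where both were listed. The rule found 8 of the 620 miRNAs listed. They were rno-miR-15b, rno-miR-16, rno-miR-195 and rno-miR-497, and their starred partners rno-miR-15b*, rno-miR-16*, rno-miR-195* and rno-miR-497*. A star marks the arm of the hairpin that miRBase held to be the less abundant one, here called the passenger arm, and the unstarred arm is called the guide. The rule found no row named for miR-15a.

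Aristolochic acid (AA) comes from Aristolochia plants, damages the kidney and causes tumors, and the series asked how the kidney miRNAs of AA-treated rats differ from those of control rats. The 4 AA-treated rats were male Big Blue rats, and AA was given to them by gavage as the sodium salt. The dose was 10.0 mg/kg in a volume of 4 ml/kg, on 5 days of each week, and began when the rats were 6 weeks old. The 4 control rats were male Big Blue rats dosed with 0.9% sodium chloride instead. All 8 rats carried the Big Blue transgene, a mutation reporter. Treatment lasted 12 weeks by the study's methods. The sample descriptions instead list 12 weeks for rat 1, 13 for rat 2, 14 for rat 3 and 15 for rat 4 in both groups, although they also put every rat at 18 weeks of age. Each library came from the kidney of 1 rat, and whole kidney holds epithelium, vessels, blood and infiltrating cells together.

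A miRNA is cut from a hairpin transcript by Drosha and Dicer. The guide arm is loaded into an Argonaute protein and pairs with messenger RNAs mainly through its seed, bases 2 to 8, while the passenger arm is mostly degraded. The guides of this family share a seed and are known to repress cyclins D and E, CDK6, CHK1 and BCL2, which slows entry into S phase and favours apoptosis. miR-16 is abundant in many tissues and in red blood cells, and it is often used as a reference in real-time PCR.

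The mature sequences of RefSeq (GRCr8 tables) are shown because the shared seed defines the family and because the arms of a hairpin carry different seeds. All 8 members were matched. The seed is in capitals, and each sequence runs 5′ to 3′.
miR-15b: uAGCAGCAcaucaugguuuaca
miR-16: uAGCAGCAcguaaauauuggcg
miR-195: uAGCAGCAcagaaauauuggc
miR-497: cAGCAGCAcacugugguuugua
miR-15b*: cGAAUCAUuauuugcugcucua
miR-16*: aCCAAUAUuauugugcugcuu
miR-195*: cCAAUAUUggcugugcugcucca
miR-497*: cCAAACCAcacugugguguuaga
miR-322: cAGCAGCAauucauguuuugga
miR-503: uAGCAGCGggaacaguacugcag
The 4 guides had the same seed, which 5 of the 693 mature rat miRNAs of the table held at that place. The fifth was miR-322, which the naming rule does not take. miR-503 differs from this seed at its last base only. The 4 passenger arms had 4 different seeds.

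Over their whole length, seed included, the guides were less alike. miR-16 and miR-195 had the same base at 19 of 21 positions, miR-15b and miR-497 at 16 of 22, and miR-16 and miR-497 at 11 of 22. How reads that match several miRNAs were counted is not given in the sources used here. The split of counts between the similar miR-16 and miR-195 could depend on it, which was not tested. In the gene table of the GRCr8 assembly, Mir15b and Mir16 neighbour each other within Smc4, which encodes a condensin subunit. Mir195 and Mir497 neighbour each other as well, and so do Mir322 and Mir503. The deposited table names no genome build, so that no positions are given.

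The total counts were similar in all libraries, between 13412373 and 15616670 per rat. Normalized counts are counts scaled by each library's median-of-ratios size factor, 0.818 to 1.05 for controls and 0.891 to 1.28 for AA-treated rats. The groups were compared for all 620 miRNAs by the quasi-likelihood test of edgeR with Benjamini-Hochberg adjustment, and a miRNA was called when the ratio of group means was over 1.5 and the adjusted p under 0.05. Of all miRNAs, 56 (9.03%) were called, 36 (5.81%) of them higher and 20 lower in the AA-treated rats. Over all miRNAs the median log2 fold change was 0.05 with these size factors, 0.09 with TMM and 0.31 when counts were scaled to their totals, and the numbers of higher and lower calls were then 38 and 16 with TMM and 58 and 11 with total counts. The 4 rats of a group are separate animals.

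The guides kept the same order of abundance in both groups, and none of the 4 was called. miR-16 was the highest with 37334 ± 4205 normalized counts in controls and 39736 ± 3144 in the AA-treated rats (mean ± SD, n = 4 each). miR-15b and miR-195 lay next to each other with means of 8130 and 7063 in controls, and miR-497 followed with 982. Of the counts of the family in the control rats, miR-16 took 69.6%, miR-15b 15.1%, miR-195 13.1% and miR-497 1.83%. The control rats' miR-15b and miR-195 values overlapped between them, whereas miR-16 was above both, and miR-497 below both, in each of the 8 rats.

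miR-16 had 34466, 41450, 40392 and 33029 normalized counts in control rats 1 to 4, and 37222, 44326, 38464 and 38932 in AA-treated rats 1 to 4. The groups overlapped, with AA-treated rat 2 highest and control rat 4 lowest. On the log2 scale the difference was 0.09 ± 0.165 (SE), with a 95% interval of -0.26 to 0.44 and an adjusted p of 0.755 (edgeR). The interval leaves out a doubling and a halving of miR-16.

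miR-15b differed more. It had 7811, 9152, 8773 and 6786 normalized counts in controls and 10437, 11013, 9667 and 9394 in the AA-treated rats. Each AA-treated rat was above each control rat, and the smallest gap was between AA-treated rat 4 and control rat 2. The ratio of the means was 1.25. An exact two-sided permutation test over the 70 labelings gave p = 0.0286, the lower limit of this test with 4 rats a group, before any adjustment. In the test across all miRNAs, the log2 fold change of 0.32 ± 0.174 (SE, edgeR) had an adjusted p of 0.294. Over all miRNAs, 101 of 620 (16.3%) had groups without overlap.

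miR-195 had 6450, 8136, 7933 and 5735 normalized counts in controls and 5747, 9133, 9153 and 5431 in the AA-treated rats. Its AA-treated rats fell into a higher pair, rats 2 and 3, and a lower pair, rats 1 and 4, and these lay on both sides of most control rats. Rats 2 and 3 were the highest of the control group as well. Its log2 fold change was 0.06 with a 95% interval of -0.42 to 0.54 (adjusted p = 0.877, edgeR), and its sign turned without AA-treated rat 2, without AA-treated rat 3 or without control rat 4.

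miR-497 showed the same arrangement at a lower level. It had 875, 1083, 1062 and 908 normalized counts in controls and 888, 1305, 1207 and 723 in the AA-treated rats. Rats 2 and 3 were again the highest of each group, and AA-treated rat 4 was the lowest of all 8. Its log2 fold change was 0.07 with a 95% interval of -0.42 to 0.56 (adjusted p = 0.862, edgeR), and its sign turned without AA-treated rat 2 or without AA-treated rat 3. With total counts as the library size the log2 fold changes were higher, at 0.35 for miR-16, 0.57 for miR-15b, 0.33 for miR-195 and 0.34 for miR-497, and again none was called (adjusted p 0.076 or above, edgeR).

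**Figure D1:**
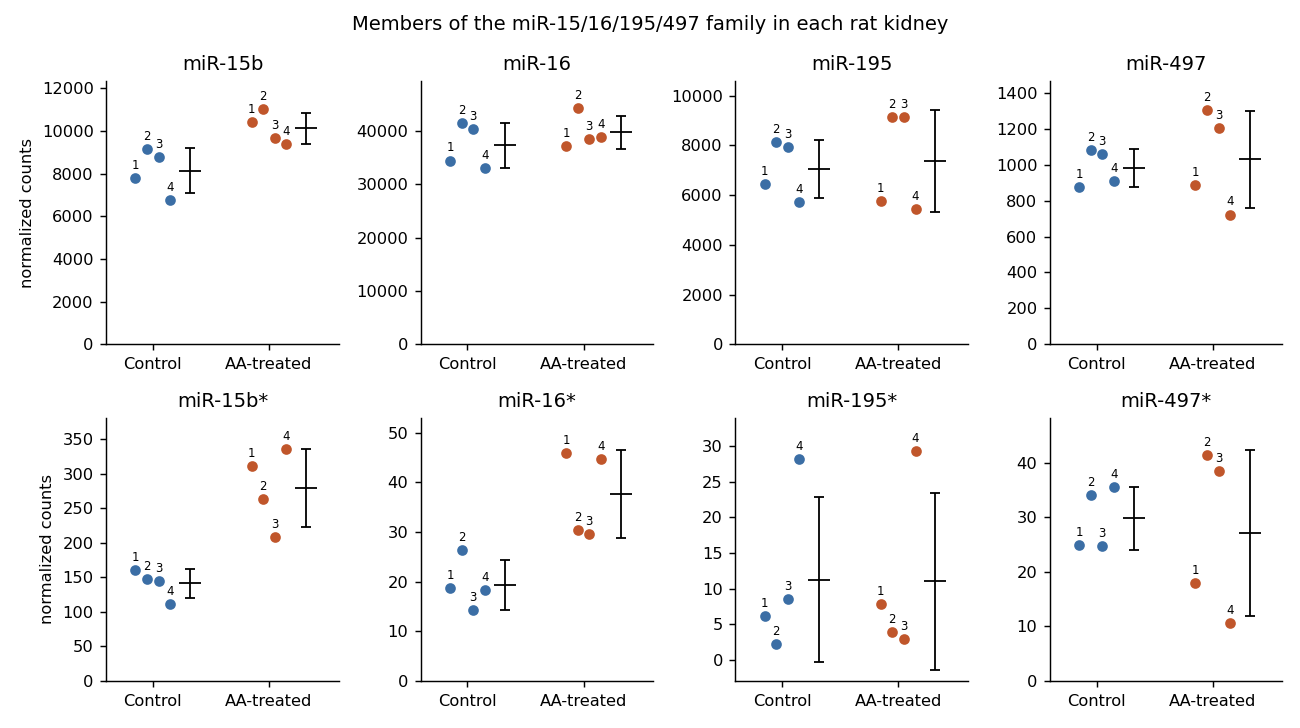
Normalized counts of the 8 members (vertical axes, a separate scale per panel) in the kidneys of 4 control rats (blue) and 4 AA-treated rats (orange), with the rat's number above each point and the mean ± SD at the right of each group. The groups do not overlap for miR-15b, miR-15b* and miR-16*, and miR-195* is highest in the rat numbered 4 of each group.

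Among the passenger arms, miR-15b* was higher in the AA-treated rats and was the only member called. It had 161, 148, 145.1 and 111 normalized counts in controls and 311, 263, 208 and 336 in the AA-treated rats. The lowest AA-treated rat, rat 3, was above the highest control rat, and the ratio of the means was 1.98. The log2 fold change was 0.98 ± 0.244 (SE) with a 95% interval of 0.46 to 1.51 and an adjusted p of 0.0219 (edgeR). The adjusted p lay between 0.0005 and 0.0627 over the 17 alternative settings, and the call was lost without control rat 2 (0.0627) and without control rat 3 (0.0566).

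miR-16* was much less abundant. It had 18.7, 26.4, 14.2 and 18.3 normalized counts in controls and 46.0, 30.4, 29.6 and 44.8 in the AA-treated rats, from 15 to 24 and 30 to 55 deposited counts. Each AA-treated rat was above each control rat here too, and the ratio of the means was 1.94. The log2 fold change of 0.96 ± 0.336 (SE) had a 95% interval of 0.23 to 1.68 and an adjusted p of 0.101 (edgeR), so that miR-16* was not called, although the size of the difference was close to that of miR-15b*. With total counts as the library size it was called (log2 fold change 1.21, adjusted p = 0.0318), and likewise after low counts were filtered with filterByExpr (0.96, adjusted p = 0.0466). The adjusted p lay between 0.0318 and 0.243 over the 17 alternative settings.

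miR-497* had 24.9, 34.05, 24.6 and 35.4 normalized counts in controls and 18.0, 41.4, 38.5 and 10.6 in the AA-treated rats. The AA-treated rats spread on both sides of the control rats, with rats 2 and 3 high and rats 1 and 4 low, as for miR-195 and miR-497. Its log2 fold change was -0.13 with a 95% interval of -1.04 to 0.78 (adjusted p = 0.862, edgeR).

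miR-195* was near the limit of what these libraries count. It had 6.24, 2.20, 8.53 and 28.1 normalized counts in controls and 7.86, 3.90, 2.96 and 29.3 in the AA-treated rats. The rat numbered 4 was far above the other 3 in both groups. No difference between the groups was detected (log2 fold change 0.02 ± 0.766 (SE), 95% interval -1.63 to 1.66, adjusted p = 0.988, edgeR).

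In all, 3 of the 8 members had groups without overlap and 1 was called, where 16.3% and 9.03% of all miRNAs did so. All 3 of them, miR-15b, miR-15b* and miR-16*, come from the hairpins within Smc4. None of the 4 arms of the miR-195 and miR-497 hairpins was among them.

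**Figure D2:**
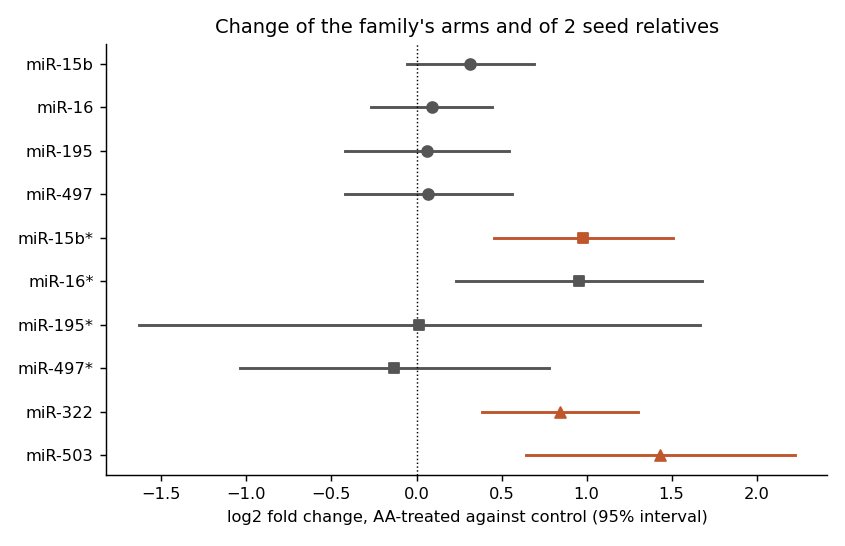
Log2 fold change, AA-treated against control, with its 95% interval from edgeR's quasi-likelihood test, for the guides (circles), the passenger arms (squares) and 2 relatives by seed (triangles), where orange marks a called miRNA. The 4 guides lie between 0.06 and 0.32, miR-15b* and miR-16* near 1, and miR-195* has the widest interval.

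Summed over the 8 members, the family had 53712 ± 6494 normalized counts in controls and 58615 ± 5341 after AA (SD, n = 4 each), a difference within the spread of the rats. It made up 0.278% to 0.396% of the deposited counts in controls and 0.363% to 0.557% in the AA-treated rats. The passenger arms were 0.330% to 0.424% of the family's counts in controls and 0.475% to 0.765% after AA, and these ranges did not overlap. This share is mostly counts of miR-15b*, with a mean of 0.264% in controls and 0.483% after AA. The mean share of miR-16* was also higher after AA (0.0363% and 0.0655%). Those of miR-497* (0.0562% and 0.0450%) and miR-195* (0.0228% and 0.0197%) were lower. The share of miR-15b moved from 15.1% ± 0.471 to 17.3% ± 1.21, and that of miR-16 from 69.6% ± 0.827 to 67.9% ± 2.30.

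Ratios of counts within a rat, here with 1 added to each count, do not depend on the size factors, and 11 of them were tested with the exact permutation test and adjusted over the 11. For 4 of them the groups did not overlap (p = 0.0286, adjusted p = 0.0786, exact), which is the smallest adjusted p that 4 of 11 ratios at this limit can give, so that none passed 0.05.

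The ratio of miR-15b to miR-15b* was lower in each AA-treated rat. It was 48.2, 61.3, 60.1 and 60.4 in controls and 33.5, 41.8, 46.2 and 27.9 in the AA-treated rats. The geometric means were 57.2 and 36.7, a log2 difference of -0.64. Among the control rats, rat 1 stood apart at the lower end and came closest to AA-treated rat 3.

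The ratio of miR-16 to miR-16* was 1745, 1510, 2663 and 1690 in controls and 790, 1420, 1258 and 854 in the AA-treated rats. The geometric means were 1856 and 1048, a log2 difference of -0.82, and only a narrow gap separated AA-treated rat 2 from control rat 2. In AA-treated rats 1 and 4 both hairpins had their lowest ratios. The ratio of miR-15b* to miR-16*, with 1 added to each count as well, was 5.44 to 9.63 in controls and 6.62 to 8.45 in the AA-treated rats, so that the passenger arms of this cluster kept a similar proportion to each other.

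For the other cluster the arm ratios overlapped between the groups. The log2 ratio of miR-195 to miR-195* differed by 0.14 (exact permutation test, p = 1.0, adjusted p = 1.0) and that of miR-497 to miR-497* by 0.35 (p = 0.286, adjusted p = 0.494, exact). AA-treated rats 1 and 4 had the highest ratios of miR-497 to miR-497*, 46.6 and 63.5, where the control rats had 24.8 to 41.5.

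**Figure D3:**
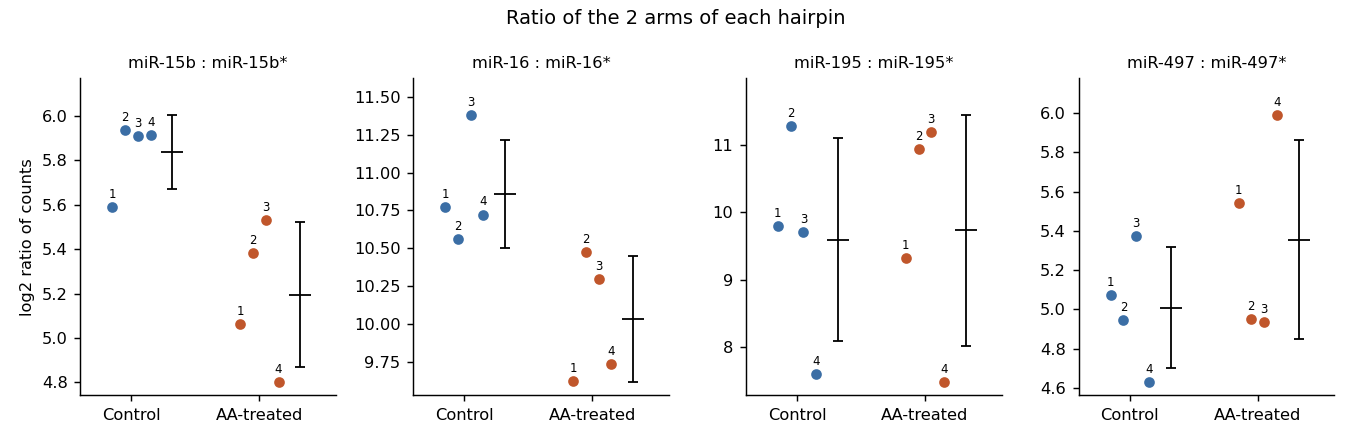
Log2 ratio of the guide's count to the passenger's count within each rat (vertical axes, a separate scale per panel that does not start at 0), with 1 added to each count, for the 4 hairpins in control (blue) and AA-treated rats (orange), numbered by rat, with the mean ± SD. The groups are apart for miR-15b and miR-16 and overlap for miR-195 and miR-497.

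A comparison was added after the members' values had been seen. It took the same arm ratio for hairpins listed under a name and the same name with a star. Hairpins with arms named otherwise, such as miR-142-3p and miR-142-5p, were left out. Both arms needed a mean of at least 10 normalized counts, which left 94 hairpins. The median change over them was -0.002 on the log2 scale, with quartiles of -0.287 and 0.339, and the groups did not overlap for 12 of 94 (12.8%), lower in the AA-treated rats for 9 and higher for 3. miR-16 ranked 5 and miR-15b 11 from the lowest change, whereas miR-195 ranked 56 and miR-497 ranked 72. A passenger arm was called higher with its guide not called for 2 of the 94 hairpins, those of miR-15b and miR-31. Over all starred rows with that mean, the median log2 fold change was 0.04, with 9 called higher and 6 lower, together 11.9% of these rows. The 9.03% called of all miRNAs also counts rows below that mean, so these shares cannot be set against each other.

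**Figure D4:**
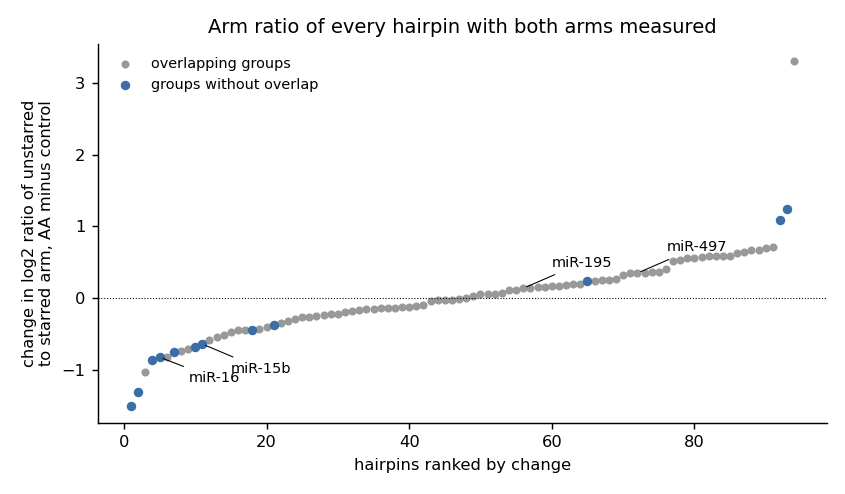
Change in the log2 ratio of the unstarred to the starred arm, AA-treated minus control (vertical axis), for the 94 hairpins listed with an unstarred and a starred arm, ranked by it (horizontal axis), in blue where the 4 control and 4 AA-treated rats do not overlap. miR-16 and miR-15b are at ranks 5 and 11 among the lower values, and miR-195 and miR-497 are at ranks 56 and 72.

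The guides were also compared within each cluster, with no test of a difference between the clusters. The ratio of miR-195 to miR-497 had an SD of 0.105 on the log2 scale over the 8 rats, and that of miR-15b to miR-16 an SD of 0.143. The former was 7.36, 7.51, 7.46 and 6.31 in controls and 6.47, 6.995, 7.58 and 7.50 in the AA-treated rats, with geometric means of 7.14 and 7.12 (log2 difference -0.004, exact permutation test, p = 0.971, adjusted p = 1.0). The levels of these guides spread widely among the AA-treated rats, and they did so together.

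The ratio of miR-15b to miR-16 was 0.227, 0.221, 0.217 and 0.205 in controls and 0.280, 0.248, 0.251 and 0.241 in the AA-treated rats. Each AA-treated rat was above each control rat, with a log2 difference of 0.23 (exact permutation test, p = 0.0286, adjusted p = 0.0786). This difference was small in size, from a geometric mean of 0.217 to one of 0.255.

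Across the clusters, the ratio of miR-15b to miR-195 was 1.11 to 1.21 in controls, and 1.82, 1.21, 1.06 and 1.73 in AA-treated rats 1 to 4. AA-treated rats 1 and 4 were above all control rats, and rats 2 and 3 were close to them (log2 difference 0.29, p = 0.314, adjusted p = 0.494, exact). The ratio of miR-16 to miR-497 was likewise 36.3 to 39.3 in controls and 41.9, 33.9, 31.8 and 53.8 in the AA-treated rats (p = 0.8286, adjusted p = 1.0, exact). miR-21 took 15.9% and 19.2% of the counts in AA-treated rats 1 and 4, 12.3% and 7.43% in rats 2 and 3, and 2.51% to 3.39% in the control rats. The part of these library differences in the ratios was not tested.

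**Figure D5:**
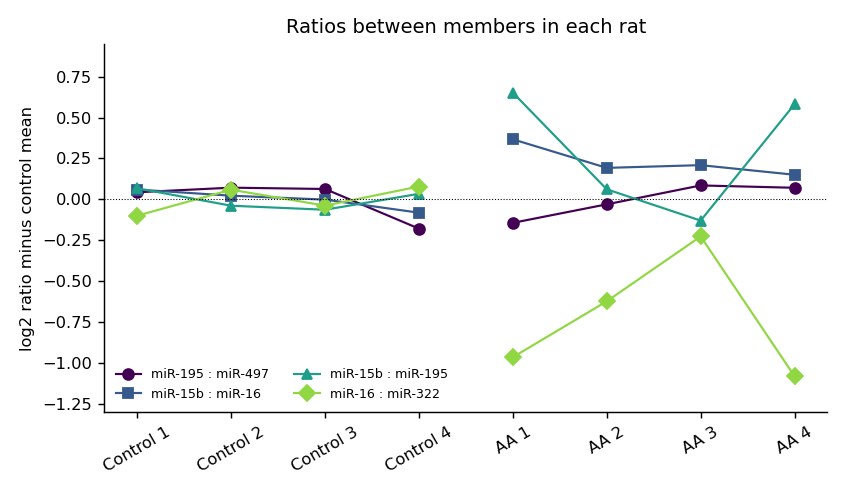
Log2 ratio of counts between members, and between miR-16 and miR-322, in each rat (horizontal axis), minus the mean of the control rats (vertical axis), where lines join the rats of a group only as a guide to the eye. The ratio of miR-195 to miR-497 stays near 0 in all 8 rats, that of miR-15b to miR-195 is above the range of the control rats in AA-treated rats 1 and 4, and that of miR-16 to miR-322 is lower in each AA-treated rat.

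The 3 miRNAs most like each guide were found by the SD, over the 8 rats, of the log2 ratio to it, among 239 candidates with a mean of at least 100 normalized counts. For miR-195 the nearest was miR-497 (SD 0.105), followed by miR-33* (0.113) and miR-29b (0.132), where the median candidate had 0.525. For miR-497 the nearest was miR-195, followed by miR-30b-5p (0.137) and miR-29c (0.140). The cluster partners were thus each other's nearest.

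miR-15b and miR-16 were not each other's nearest. For miR-15b the nearest were miR-582* (0.119), miR-505 (0.133) and miR-145 (0.138), and miR-16 was the fourth (0.143). For miR-16 they were miR-143* (0.128), miR-145 (0.131) and miR-22 (0.131). These SDs differ little among themselves, and all 8 points of each share the libraries.

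As a reference, miR-16 was among the steadiest of the abundant miRNAs with these size factors. The SD of its log2 normalized count over the 8 rats was 0.139, the second lowest of 130 miRNAs with a mean of at least 1000. With TMM it was again the second lowest (0.142), but it ranked 34 (0.287) when counts were scaled to their totals. Among other miRNAs used as references, the SD was 0.203 for miR-25, 0.208 for miR-24, 0.231 for miR-93, 0.293 for miR-26a, 0.413 for let-7a, 0.496 for miR-191 and 0.723 for miR-103. The median of the 130 was 0.345. Of the other guides, with the same size factors, miR-15b had an SD of 0.225 (rank 22), miR-497 of 0.279 (rank 41) and miR-195 of 0.313 (rank 50). Scaled to total counts, the order changed, and miR-26a (0.188), miR-24 (0.198), miR-25 (0.2495) and miR-93 (0.283) had smaller SDs than miR-16, while miR-15b (0.373, rank 68), miR-497 (0.367, rank 64) and miR-195 (0.408, rank 80) had larger ones.

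Of 6 relatives by seed listed, 4 were measured, 2 were called higher and 2 lower, where 9.03% of all miRNAs were called. miR-322, which has the family's seed, had 3241, 3491, 3640 and 2744 normalized counts in controls and 6376, 5991, 3949 and 7231 in the AA-treated rats. Each AA-treated rat was above each control rat, and rat 3 was the nearest to them (log2 fold change 0.84 ± 0.213 (SE), adjusted p = 0.0227, edgeR). The call was lost without any 1 of control rats 1 to 4 (adjusted p 0.0519 to 0.0689, edgeR) and without both rats numbered 4 (0.0656).

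miR-503, the cluster partner of miR-322, had 1228, 1488, 1255 and 1204 normalized counts in controls and 6014, 2586, 1200 and 4170 in the AA-treated rats. AA-treated rats 1, 2 and 4 were above all control rats, and rat 3 was below them. The log2 fold change was 1.43 (adjusted p = 0.0245, edgeR), and the call was lost without control rats 1, 3 or 4 or AA-treated rat 1 (adjusted p 0.0586 to 0.0745), without both rats numbered 4 (0.118), with robust moderation (0.0651) and with limma-voom (0.0968).

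miR-103 and miR-107 hold the same 7 bases shifted by 1 position and were lower in each AA-treated rat than in each control rat. miR-103 fell by 1.21 on the log2 scale (adjusted p = 0.0036, edgeR) and stayed under 0.05 in every alternative run. miR-107 fell by 0.77 (adjusted p = 0.0386), and its call was lost without control rats 2, 3 or 4 or AA-treated rats 3 or 4, without both rats numbered 4, with TMM and with total counts (adjusted p 0.0513 to 0.162).

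The ratio of miR-16 to miR-322 was 10.6, 11.9, 11.1 and 12.0 in controls and 5.84, 7.40, 9.74 and 5.38 in the AA-treated rats, a log2 difference of -0.72 (p = 0.0286, adjusted p = 0.0786, exact). With miR-322 the guides sharing the seed summed to 56789 ± 6850 normalized counts in controls and 64147 ± 5132 after AA (SD, n = 4 each), and these groups overlapped. The arm ratio of the miR-322 hairpin moved the other way from those of miR-15b and miR-16, by 1.24 on the log2 scale and without overlap, with miR-322* at a log2 fold change of -0.41 (adjusted p = 0.319, edgeR). A second row, named rno-mir-322*, was not part of this ratio. It had means of 554 normalized counts in controls and 457 in the AA-treated rats (log2 fold change -0.28, adjusted p = 0.496, edgeR).

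Other miRNAs known for effects on the cell cycle were counted from 2 lists. Of 12 that promote growth (the miR-17-92 and miR-106b-25 clusters, miR-221 and miR-222), 11 were found under the listed names. The arm listed as miR-17-3p was in the count table as miR-17-1-3p and was left out (log2 fold change 0.02, adjusted p = 0.961, edgeR). Of the 11, 3 were called higher and none lower, where 5.81% of all miRNAs were called higher. The median log2 fold change of the 11 was 0.55, where that of all miRNAs was 0.05. miR-18a had the smallest p, with a log2 fold change of 1.16 (adjusted p = 0.0123, edgeR), and miR-93 the largest, with 0.003 (adjusted p = 0.988). Of 15 that restrain growth (the miR-34 and miR-449 group, let-7 and miR-26), 14 were measured, 4 were called higher and none lower, with a median of 0.37, where 5.81% of all miRNAs were called higher. All 4 were miR-34a, miR-34b, miR-34c and miR-449a. No let-7 member was called, and miR-26a and miR-26b had ratios of 0.730 and 0.763 with groups that did not overlap (adjusted p = 0.139 and 0.167, edgeR). miR-34a, a p53 target, had the smallest p, with a log2 fold change of 4.42 (adjusted p = 1.28e-07, edgeR), and let-7e the largest, with 0.15 (adjusted p = 0.712). Of the family's 4 guides, 0 were called, where 9.03% of all miRNAs were, and their median was 0.08.

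Markers of the cell types in whole kidney were measured beside these values. In bulk kidney, fewer cells of a type and less RNA per cell cannot be told apart. Of 3 red cell miRNAs measured none was called, and their sum was 11079 to 16984 normalized counts in controls and 3402 to 11441 in the AA-treated rats, a ratio of the mean sums of 0.596 where that of miR-16 was 1.06. Of 4 leukocyte miRNAs 2 were called higher, where 5.81% of all miRNAs were, and their sum went from 13715 to 17802 in the control rats to 29485 to 56648 in the AA-treated rats. This sum is mostly counts of miR-142-3p, and the other arm of that hairpin, miR-142-5p, had a ratio of 1.197 (adjusted p = 0.632, edgeR). The part of leukocytes in the difference of miR-15b* was not tested.

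Of 9 kidney epithelial miRNAs none was called higher and 1, miR-204, was called lower, where 9.03% of all miRNAs were called. The ratio of the mean sums was 0.789. This sum is mostly counts of miR-30a (ratio 0.859) and miR-192 (0.557), neither of them called, and miR-200c (1.29) and miR-141 (1.06) had ratios above 1. The 2 endothelial and the 5 smooth muscle and fibroblast miRNAs gave no call, with ratios of the mean sums of 0.808 and 0.755. The latter sum is mostly counts of miR-143 (ratio 0.752), and the other 4 of that list had ratios above 1, from 1.16 to 1.66, with a median log2 fold change of 0.43 for the list. No marker was at 0 in any list. The sum of the kidney epithelial markers was between 1631290 and 3215700 in each of the 8 rats. Among them, miR-204 had only 338 to 588 normalized counts in controls and 213 to 281 in the AA-treated rats.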

How the data were processed

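Small RNA libraries of 8 rat kidneys, 4 AA-treated and 4 control, were sequenced with 36-cycle single reads. The authors masked adaptors, removed contaminated reads and assigned the rest to the rat miRNAs of miRBase 16 with miRanalyzer at default parameters. The authors deposited raw counts, as whole numbers for each mature miRNA in each library, with no normalization or pooling. The submitters' processing notes name CASAVA 1.7. The aligner's mismatch setting and the genome build are not given in the sources used here. All columns were used. Groups were taken from the sample labels.

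Median-of-ratios size factors scaled the counts. All 620 miRNAs entered a quasi-likelihood fit (edgeR 4.0.16, R 4.3.3) without covariates or a filter, and p values were adjusted by Benjamini-Hochberg. Single ratios were compared with exact two-sided permutation tests over 70 labelings after a pseudocount of 1 was added to each count. The alternatives were TMM, total counts, DESeq2 1.42.0, limma-voom (limma 3.58.1), robust moderation, 2 filters on low counts, other ratio thresholds, a pseudocount of 0.5, a replicate block, and fits without each rat in turn or without the pair of rats numbered 4. Python 3.11.15, numpy 2.4.6, pandas 2.3.3 and matplotlib 3.10.9 were used.

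The test was tested on simulated data drawn from the means and depths of these libraries, with 602 miRNAs. It recovered 100% of 62 simulated 4-fold changes and 44.8% of 67 simulated 2-fold changes at a mean of at least 10 counts, and 1.98% of its calls were false. How far these shares hold for miRNAs with a wider spread among rats was not tested. PCR reads are not independent molecules.

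The members, the gene lists and the tests were chosen with earlier results of these data known. The rule named every member, the relatives by seed, of each cell cycle list those with the smallest and largest p, the 3 miRNAs nearest to each guide, and 7 reference miRNAs. miR-17-1-3p, miR-21, miR-26b, miR-30a, miR-31, miR-34b, miR-34c, miR-141, miR-142-3p, miR-142-5p, miR-143, miR-192, miR-200c, miR-204, miR-322* with its second row, and miR-449a were named after their values were seen.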

Additional observations from a re-analysis of the deposited data

Results flagged for a closer look

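Each end of the 4 control and of the 4 AA-treated values was compared with its nearest neighbour for the members and their ratios, in 38 groups, and chance alone sets apart about 1 in 20 groups. A single rat stood apart from its group in 2 of them. Control rat 1 had the lowest log2 ratio of miR-15b to miR-15b* among the control rats (5.59), and its gap to the next was 0.919 of the range of the group. Control rat 4 had the lowest log2 ratio of miR-195 to miR-497 among the control rats (2.66), with a gap of 0.888 of the range.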

How the results depend on the processing

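The number of members called was 1 with median-of-ratios size factors, 2 with total counts and with filterByExpr, where miR-16* joined (log2 fold change 1.21 and 0.96), 0 with a ratio over 2, and 0 to 1 when 1 rat was left out. The log2 fold change of miR-15b* then lay between 0.87 and 1.09, and that of miR-15b, miR-16 and miR-16* kept its sign in every setting run. Leaving out 1 rat gave -0.069 to 0.185 for miR-195, -0.064 to 0.21 for miR-497, -0.42 to 0.15 for miR-497* and -1.17 to 0.94 for miR-195*. It gave -0.064 to 0.042 for the log2 ratio of miR-195 to miR-497, -0.53 to 0.88 for miR-195 to miR-195*, -0.062 to 0.195 for miR-16 to miR-195 and -0.091 to 0.16 for miR-16 to miR-497, and 0.06 to 0.18 for the log2 ratio of the family sums, which was 0.39 with total counts. miR-497* was at 0.16 with total counts and 0.25 without both rats numbered 4. miR-195* was at -0.014 with DESeq2, -0.048 with limma-voom and -0.25 without both rats numbered 4, and filterByExpr removed it. The cause of these changes was not tested. The pairs of equal number correlated at -0.011, 0.143, 0.124 and 0.337 over 370 miRNAs, 3 of these 4 were over 0.1, and 5 of the 8 rats correlated best with their own number. Rats of equal number are different animals that share the number and the duration listed in the sample descriptions. With the replicate block miR-15b* had a log2 fold change of 0.97 (adjusted p = 0.0166, edgeR), miR-195* was at -0.085, and 74 miRNAs were called in place of 56. The call of miR-107 was lost (adjusted p = 0.0505, edgeR). Over the other settings the number of miRNAs called lay between 40 and 74. miR-16*, miR-195* and miR-497* had under 60 normalized counts per rat, and how far depth limits them was not tested.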
